A study of Homo sapiens with 519 samples.

Results

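Isopomiferin was compared directly with pomiferin in cells of the line SK-N-BE(2), which derives from a human neuroblastoma and carries many copies of the MYCN gene. Both compounds are prenylated isoflavones of the Osage orange tree. Isopomiferin is the isomer of pomiferin in which the free prenyl group is closed onto the neighbouring hydroxyl to form a ring, so the comparison asks what that ring closure changes. The libraries were chosen by their labels: isopomiferin and pomiferin, each at 3 or 10 µM, each for 3 h or 6 h, with 3 TruSeq libraries per group. That gave 24 of the 39 TruSeq libraries of the study, which holds 519 libraries in all. They form 4 pairs matched for dose and time, and no library serves in more than 1 pair. The same experiment has 3 DMSO libraries at each time, and also libraries of a null analog and of mock-treated cells. All groups are of that 1 cell line, and the labels give no genetic change between them. The labels do not say whether the 3 libraries of a group came from separate cultures, so errors and p-values describe the spread between these libraries, which may be technical.

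The genes described below belong to a few stress and lipid programmes. The unfolded protein response senses misfolded protein in the endoplasmic reticulum (ER) and raises chaperones such as HSPA5 through the factors ATF6 and XBP1. The integrated stress response acts through the transcription factor ATF4, which raises amino acid synthesis and transport genes, DDIT3, CHAC1 and TRIB3. The heat shock response acts through HSF1 on cytosolic chaperones such as HSPA1A. Sterol synthesis is driven by the SREBP factors, which INSIG1 holds back in the ER when sterols are plentiful, and INSIG1 is itself an SREBP target.

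Promoters from RefSeq (GRCh38.p14) were searched for the motifs these programmes are known for, and 6 that bear a motif are shown because their genes carry the main contrasts between the compounds. Each sequence is the 250 bases before the gene's start, written 5′ to 3′ on the gene's strand, with the motif in capitals. HSPA5 (chr9:125241344-125241593, minus strand), CALR (chr19:12938359-12938608, plus strand) and FICD (chr12:108515027-108515276, plus strand) hold the ER stress element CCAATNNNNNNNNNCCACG, which lies in CALR on the other strand. HERPUD1 (chr16:56931892-56932141, plus strand) and CHAC1 (chr15:40953221-40953470, plus strand) hold the ATF4 composite element TGATGNAA on the other strand. HSPA8 (chr11:123062137-123062386, minus strand) holds the heat shock element, searched as 3 inverted GAA units (GAA, NN, TTC, NN, GAA, or the same starting from TTC), at 2 places.
HSPA5: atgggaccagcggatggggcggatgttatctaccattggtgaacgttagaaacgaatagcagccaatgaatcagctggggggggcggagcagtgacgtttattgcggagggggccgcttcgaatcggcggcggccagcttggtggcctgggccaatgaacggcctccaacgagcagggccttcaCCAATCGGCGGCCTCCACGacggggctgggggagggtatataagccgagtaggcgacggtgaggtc
CALR: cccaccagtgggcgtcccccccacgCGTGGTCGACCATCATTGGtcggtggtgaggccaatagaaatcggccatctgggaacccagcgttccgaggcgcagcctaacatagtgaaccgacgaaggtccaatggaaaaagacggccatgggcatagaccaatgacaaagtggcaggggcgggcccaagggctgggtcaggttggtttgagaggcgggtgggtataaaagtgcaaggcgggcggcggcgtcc
FICD: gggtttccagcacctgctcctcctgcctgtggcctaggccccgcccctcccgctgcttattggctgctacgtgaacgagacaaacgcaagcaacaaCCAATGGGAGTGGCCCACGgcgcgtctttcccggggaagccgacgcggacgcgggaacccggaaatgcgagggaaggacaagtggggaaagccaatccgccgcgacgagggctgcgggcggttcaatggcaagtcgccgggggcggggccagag
HERPUD1: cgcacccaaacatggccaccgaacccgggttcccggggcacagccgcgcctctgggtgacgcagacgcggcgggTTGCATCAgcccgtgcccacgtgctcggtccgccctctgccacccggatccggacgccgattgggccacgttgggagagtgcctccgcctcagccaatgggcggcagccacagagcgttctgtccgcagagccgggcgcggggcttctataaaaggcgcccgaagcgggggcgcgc
CHAC1: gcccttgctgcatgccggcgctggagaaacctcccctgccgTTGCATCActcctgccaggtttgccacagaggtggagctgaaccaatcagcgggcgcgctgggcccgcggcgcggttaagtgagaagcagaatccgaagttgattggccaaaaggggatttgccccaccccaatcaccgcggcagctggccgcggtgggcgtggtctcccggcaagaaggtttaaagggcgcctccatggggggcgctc
HSPA8: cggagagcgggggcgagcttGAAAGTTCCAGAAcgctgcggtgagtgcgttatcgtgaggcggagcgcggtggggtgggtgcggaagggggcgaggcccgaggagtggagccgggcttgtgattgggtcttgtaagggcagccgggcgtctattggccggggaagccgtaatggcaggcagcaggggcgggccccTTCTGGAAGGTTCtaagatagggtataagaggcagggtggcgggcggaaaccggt

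Both strands of 35116 promoters, from 250 bases before to 50 after the start, were searched. The ER stress element was in 0.0769% of them, the ATF4 element in 3.62%, the heat shock element in 0.490% and the sterol core TCACNCCAC in 1.13%. Of the 22 ER chaperones and foldases described below, 20 had a promoter in the table, and 6 of these held the ER stress element: HSPA5, HSP90B1, CALR, CANX, CRELD2 and ERO1B. Of 16 ATF4 list promoters 3 held the ATF4 element (ATF3, CHAC1 and FGF21), and of 22 cytosolic heat shock promoters 4 held the heat shock element (HSPA8, DNAJA1, CHORDC1 and SERPINH1). Among 37 promoters of genes higher with isopomiferin in all 4 pairs, 3 held the ER stress element (CALR, HSPA5 and FICD). Only HERPUD1 among the 37 held the ATF4 element, which 3.62% of all promoters held. The sterol core was in 0 of 15 promoters of the sterol synthesis enzymes, which says only that these letters are not in that window. A match is a description of the sequence and not a measured site.

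Total counts ran from 17209306 to 33280770 per TruSeq library, and mitochondrially encoded genes took 1.71% to 2.79% of them. Of 25392 genes counted, 15329 passed the filter on low counts and were tested. Neuroblast markers were high in every library, for example TH (527 to 690 CPM, the counts scaled to equal library size and given per 1e6) and HAND2 (686 to 1064 CPM). The libraries also carried a low level of monocyte and macrophage genes, a list of 25 drawn up after these genes were seen, and this level differed between groups. Its summed level was 177, 211 and 243 CPM with isopomiferin at 10 µM for 3 h, but 30.7, 50.0 and 51.4 CPM with pomiferin at that dose and time. Replicate 1 of DMSO at 3 h stood apart from its group as well, at 300 CPM against 37.1 and 31.8 CPM, and the mock-treated libraries had 113 to 262 CPM. In the other 3 matched pairs the sums were 27.3 to 91.1 CPM. PTPRC, which marks all white blood cells, was at 0.247 to 3.15 CPM over all 39 libraries.

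**Figure D1:**
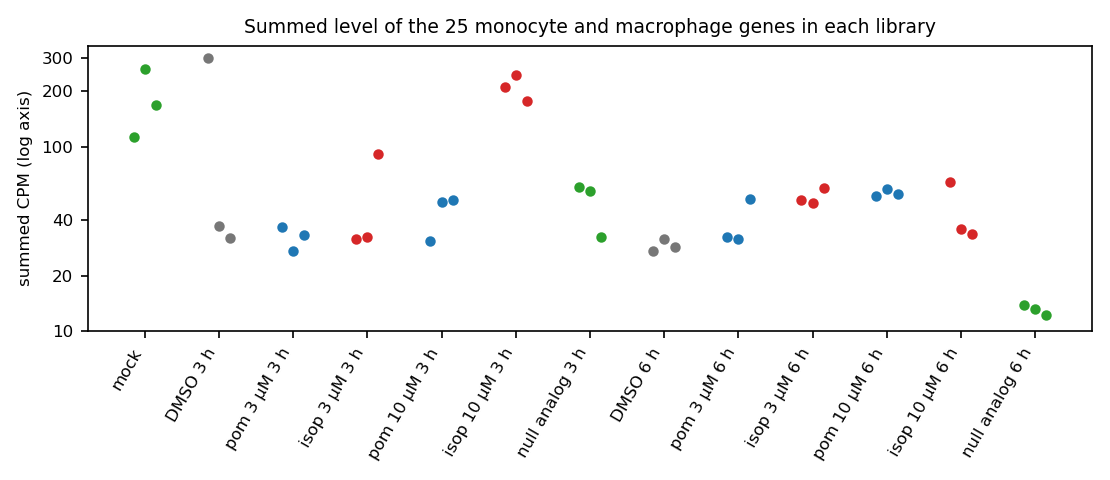
Summed level of 25 monocyte and macrophage genes (CPM, log axis) in each of the 39 TruSeq libraries, one dot per library, by group. All 3 libraries of isopomiferin at 10 µM and 3 h lie at 177 to 243 CPM, above the 30.7 to 51.4 CPM of pomiferin at 10 µM and 3 h, and replicate 1 of DMSO at 3 h lies at 300 CPM.

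Between isopomiferin and pomiferin, edgeR's quasi-likelihood test (Benjamini-Hochberg adjusted p under 0.05, two-sided, all 13 TruSeq groups in one fit) called 1952 genes at 10 µM and 6 h, or 12.7% of those tested. It called 372 at 10 µM and 3 h (2.43%), 2030 at 3 µM and 6 h (13.2%) and 95 at 3 µM and 3 h (0.62%). With isopomiferin, 850 genes were higher (5.55%) and 1102 lower (7.19%) at 10 µM and 6 h, and 222 were higher (1.45%) and 150 lower (0.979%) at 10 µM and 3 h. At 3 µM, 1091 were higher (7.12%) and 939 lower (6.13%) at 6 h, and 77 were higher (0.502%) and 18 lower (0.117%) at 3 h. Differences of at least 2-fold were fewer: 47 higher and 55 lower at 10 µM and 6 h, and 53 higher and 55 lower at 3 µM and 6 h. For 79.4% of genes at 10 µM and 6 h, 79.8% at 10 µM and 3 h, 79.2% at 3 µM and 6 h and 80.5% at 3 µM and 3 h, the 95% interval of the difference lay within 1 log2 unit on either side of 0. Single libraries moved some counts: without isopomiferin replicate 2 or pomiferin replicate 1 the count at 10 µM and 3 h was 222 or 243, and without isopomiferin replicate 1 the count at 3 µM and 6 h was 1201. With p-values adjusted over the 4 pairs together, the calls were 1639, 551, 1639 and 258 in the same order.

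HSPA5 (chromosome 9, 125234853 to 125241343, GRCh38.p14), the main chaperone of the ER lumen, was higher with isopomiferin in every pair. After 6 h at 3 µM its level was 3808, 3826 and 3868 CPM with isopomiferin and 1316, 1337 and 1341 CPM with pomiferin, against 510 to 516 CPM with DMSO. At 10 µM and 6 h it was 4184, 4416 and 4382 CPM against 2036, 2029 and 2205 CPM. Within each dose the compounds did not overlap, and both lay above DMSO. At 3 h the levels were 1580, 1663 and 1842 CPM against 774, 800 and 870 CPM at 3 µM, and 1628, 1774 and 1993 CPM against 685, 776 and 927 CPM at 10 µM. The log2 difference, isopomiferin minus pomiferin, was 1.06 ± 0.07 (SE, n = 3 per group) at 3 µM and 3 h, 1.18 ± 0.07 at 10 µM and 3 h, 1.53 ± 0.07 at 3 µM and 6 h and 1.05 ± 0.07 at 10 µM and 6 h (adjusted p at most 5.97e-13 by edgeR).

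INSIG1 (chromosome 7, 155297878 to 155310235), which retains the SREBP machinery in the ER, separated the compounds on opposite sides of DMSO at 3 h. With 10 µM it was at 65.2, 68.6 and 76.8 CPM with isopomiferin and 21.1, 19.5 and 19.6 CPM with pomiferin, while DMSO gave 47.6, 46.3 and 49.8 CPM. With 3 µM it was at 69.3, 68.9 and 68.3 CPM against 23.2, 23.5 and 21.6 CPM. All isopomiferin libraries thus lay above DMSO and all pomiferin libraries below it. At 6 h, isopomiferin gave 91.3, 92.9 and 93.4 CPM at 3 µM and 96.8, 104 and 101 CPM at 10 µM. Pomiferin gave 49.6, 49.7 and 50.9 CPM at 3 µM and 34.8, 35.4 and 34.7 CPM at 10 µM, where DMSO stood at 50.6 to 53.9 CPM. The differences were 1.59 ± 0.06 (3 µM, 3 h), 1.80 ± 0.06 (10 µM, 3 h), 0.89 ± 0.05 (3 µM, 6 h) and 1.52 ± 0.05 (10 µM, 6 h) on the log2 scale (adjusted p at most 4.84e-15).

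MYCN (chromosome 2, 15940550 to 15947004), the amplified oncogene of this line, was higher with isopomiferin in all 4 pairs, by less than 2-fold. At 10 µM it was at 4561, 4695 and 4605 CPM with isopomiferin and 2835, 2908 and 2963 CPM with pomiferin after 3 h. After 6 h it was at 3858, 3483 and 3387 CPM against 2640, 2438 and 2200 CPM. At 3 µM and 3 h the levels were 4619, 4695 and 4625 CPM against 3189, 3220 and 3565 CPM. At 6 h they were 4282, 3932 and 3803 CPM against 3410, 3336 and 3249 CPM. DMSO lay between the compounds at 3 h, at 3860 to 4125 CPM, and at 6 h at 3725 to 3820 CPM, overlapping both isopomiferin groups and above every pomiferin library. The log2 difference was 0.48 ± 0.05 and 0.67 ± 0.05 at 3 h (3 and 10 µM) and 0.27 ± 0.05 and 0.56 ± 0.05 at 6 h, the smallest at an adjusted p of 0.000281 by edgeR.

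HSPA1A (chromosome 6, 31815543 to 31817942), an inducible cytosolic chaperone, was lower with isopomiferin in the 10 µM pair at 6 h, in contrast to the genes above. It was then at 158, 174 and 153 CPM with isopomiferin and 304, 308 and 305 CPM with pomiferin, and at 86.1 to 96.1 CPM with DMSO. The difference was −0.92 ± 0.09 (adjusted p = 2.11e-09). In the other pairs it did not pass: 0.14 [−0.05 to 0.33] (95% interval) at 10 µM and 3 h, 0.17 [−0.01 to 0.35] at 3 µM and 6 h and 0.33 [0.14 to 0.52] at 3 µM and 3 h. The last, with an adjusted p of 0.111, passed with adjustment over the 4 pairs together (adjusted p = 0.0246), with DESeq2 (adjusted p = 0.0373) and in a fit of those samples alone (adjusted p = 0.0260). HSPA1A has a near-identical neighbour, HSPA1B, between which reads cannot be divided with certainty. HSPA1B gave −0.94 ± 0.07 at 10 µM and 6 h.

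**Figure D2:**
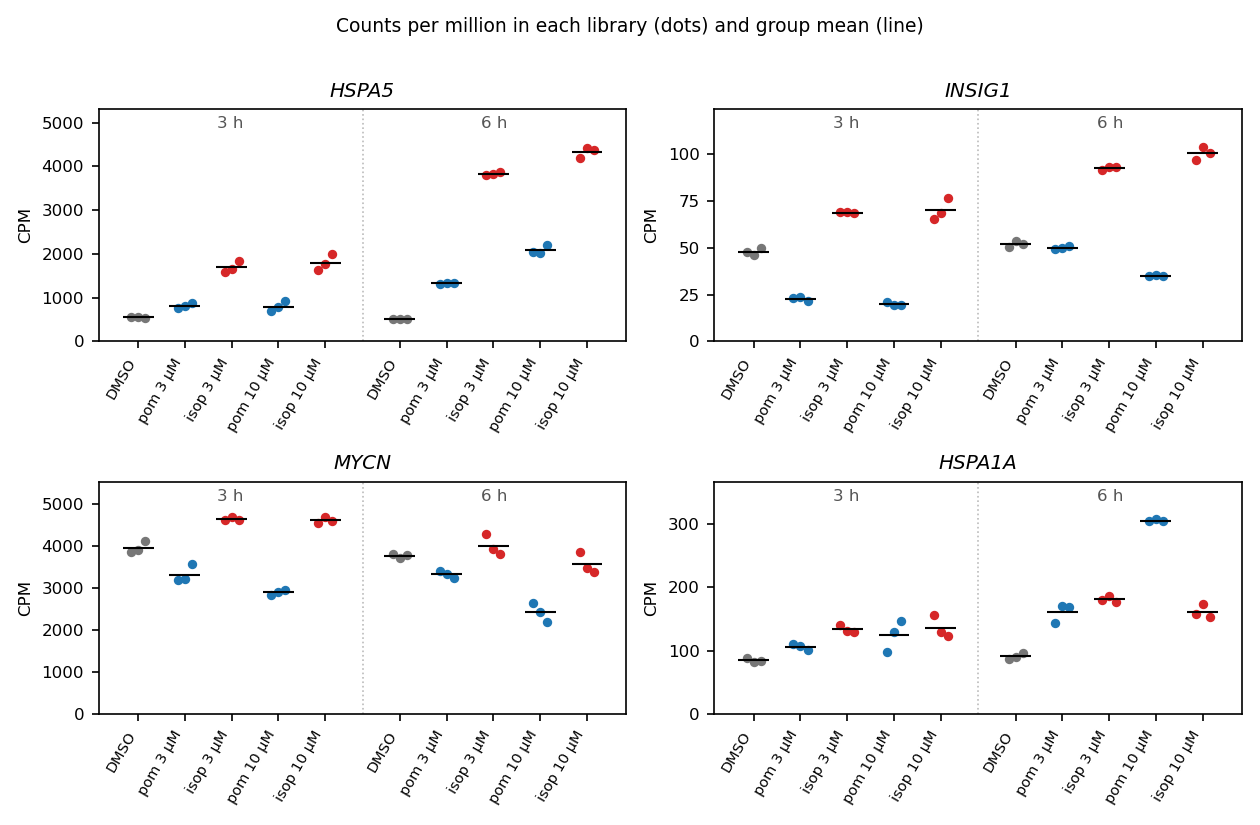
CPM of HSPA5, INSIG1, MYCN and HSPA1A in each library (dots) with the mean of 3 (line), for DMSO, pomiferin (pom) and isopomiferin (isop) at 3 h and 6 h. Isopomiferin exceeds pomiferin for HSPA5, INSIG1 and MYCN in each pair, and HSPA1A is highest with pomiferin at 10 µM and 6 h.

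Every ER chaperone or foldase that passed was higher with isopomiferin, in each of the 4 pairs. Of 22 genes, 18 were higher with isopomiferin at 10 µM and 6 h, 11 at 10 µM and 3 h, 22 at 3 µM and 6 h and 10 at 3 µM and 3 h. The shares of all genes higher in those pairs are the 5.55%, 1.45%, 7.12% and 0.502% given above. Their median log2 difference was 0.47, 0.20, 0.66 and 0.22 in that order, where the median of all genes tested was within 0.01 of 0. Against the shared DMSO libraries, 22 rose with either compound at 10 µM and 6 h, by a median of 1.20 with isopomiferin and 0.75 with pomiferin. After 6 h at 3 µM 22 rose with isopomiferin and 17 with pomiferin. Of all 15329 genes tested, 2061 rose with isopomiferin and 2465 with pomiferin at 10 µM and 6 h. At 3 µM and 6 h 1494 rose with isopomiferin and 606 with pomiferin.

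SDF2L1, a partner of the HSPA5 chaperone cycle, was at 200, 201 and 176 CPM with isopomiferin and 55.1, 60.3 and 61.1 CPM with pomiferin at 3 µM and 6 h, a difference of 1.71 ± 0.07. PDIA4, a disulfide isomerase, was at 963, 994 and 993 CPM against 417, 438 and 441 CPM (1.19 ± 0.04). DNAJB9, an ER co-chaperone, was at 65.4, 64.8 and 70.5 CPM against 27.9, 29.7 and 30.2 CPM (1.19 ± 0.10). In none of these 3 genes did the 2 groups overlap. FICD, the enzyme that attaches AMP to HSPA5, was at 9.17, 11.1 and 10.1 CPM against 4.30, 3.54 and 4.47 CPM (1.31 ± 0.19), and with 3 µM of pomiferin it stood close to the 3.67 to 4.24 CPM of DMSO. Calreticulin, CALR, differed by less: 1576, 1573 and 1646 CPM against 1112, 1136 and 1161 CPM (0.49 ± 0.03). At 10 µM the FICD difference was 0.77 ± 0.20 at 3 h, a call lost in a fit of those samples alone and without isopomiferin replicate 1 or pomiferin replicate 2 or 3. At 6 h it was 0.58 ± 0.16, a call lost without pomiferin replicate 1.

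In the rest of the secretory pathway the difference depended on dose at 6 h for some genes. ER-associated degradation genes, which retrieve misfolded protein, were higher in 12 of 19 cases at 3 µM and 6 h, whereas 6 were higher and 3 lower at 10 µM. Translocon and ER export genes were higher in 18 of 27 cases at 3 µM, and 2 were higher and 2 lower at 10 µM. Of all genes, 7.12% were higher at 3 µM and 6 h, and 5.55% were higher and 7.19% lower at 10 µM and 6 h, so the translocon and export counts at 10 µM lie near the background. HERPUD1, a degradation adaptor whose promoter is printed above, was at 264, 271 and 262 CPM against 94.8, 119 and 115 CPM at 3 µM and 6 h (1.28 ± 0.09). After 6 h at 10 µM it was at 379, 369 and 378 CPM against 276, 303 and 300 CPM, a difference of 0.36 ± 0.09. The interaction of compound and dose passed for 6 of the 19 degradation genes and 9 of the 27 translocon and export genes, each with a smaller or more negative difference at 10 µM, and for HERPUD1 it was −0.92 ± 0.13. Of all genes, 4.23% passed this interaction at 6 h. XBP1, a transcription factor of the response, differed by 0.89 ± 0.08 at 3 µM and by 0.14 [−0.0046 to 0.29] at 10 µM (adjusted p = 0.212). SEC61A1, the channel of the translocon, was higher by 0.44 ± 0.04 at 3 µM and 6 h.

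The sterol synthesis enzymes that passed were likewise all higher with isopomiferin in each pair. Of 20 genes, 18 were higher at 10 µM and 6 h, 13 at 10 µM and 3 h, 20 at 3 µM and 6 h and 11 at 3 µM and 3 h. The shares of all genes higher in those pairs were 5.55%, 1.45%, 7.12% and 0.502%. The median log2 differences of the 20 genes were 0.74, 0.35, 0.57 and 0.37. At 10 µM and 6 h the compounds stood on different sides of DMSO for many of them. In the 10 µM pair at 6 h 16 rose with isopomiferin, and 13 fell and 1 rose with pomiferin. With 10 µM for 3 h 4 rose with isopomiferin and 7 fell with pomiferin, and at 3 µM and 3 h 5 rose with isopomiferin and 7 fell with pomiferin. In the 3 µM pair at 6 h, only 7 of all 1091 higher genes had risen with isopomiferin and fallen with pomiferin. Among all 15329 genes tested, 2061 rose with isopomiferin, and 2360 fell and 2465 rose with pomiferin, at 10 µM and 6 h. At 3 h 399 rose with isopomiferin and 196 fell with pomiferin at 10 µM. The same counts at 3 µM and 3 h were 208 and 15. Both sets of values use the same DMSO libraries, of which replicate 1 at 3 h stood apart in the monocyte genes.

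MSMO1, the methyl sterol oxidase, was at 77.6, 91.6 and 103 CPM with isopomiferin and 23.5, 22.8 and 25.5 CPM with pomiferin at 10 µM and 3 h, with DMSO at 50.7 to 65.4 CPM. That is a log2 difference of 1.92 ± 0.09. Its isopomiferin and pomiferin libraries stood on opposite sides of DMSO. FDFT1, the squalene synthase, differed more at 6 h than at 3 h: 280, 281 and 302 CPM against 142, 139 and 142 CPM at 10 µM and 6 h (1.03 ± 0.05), and 0.50 ± 0.05 at 3 h. HSD17B7, a reductase late in the pathway, was at 11.7, 14.6 and 15.5 CPM against 4.81, 4.06 and 3.85 CPM at 10 µM and 6 h (1.74 ± 0.12).

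MSMO1 differed less between the compounds after 6 h than after 3 h. Its difference changed by −0.81 ± 0.12 from 3 h to 6 h at 10 µM (adjusted p = 0.000117 for the interaction of compound and time) and by −0.93 ± 0.11 at 3 µM (adjusted p = 4.67e-06). For FDFT1 the change went the other way, 0.53 ± 0.07 at 10 µM (adjusted p = 5.48e-05). SCD, the fatty acid desaturase, was higher with isopomiferin in all pairs, from 0.24 ± 0.04 at 3 µM and 3 h to 0.73 ± 0.04 at 10 µM and 6 h. SREBF1, which encodes an SREBP factor, passed in 1 pair, 3 µM and 6 h (0.66 ± 0.14). SREBF2, its sterol-specific relative, passed in both 6 h pairs (0.37 ± 0.05 at 3 µM and 0.28 ± 0.05 at 10 µM).

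**Figure D3:**
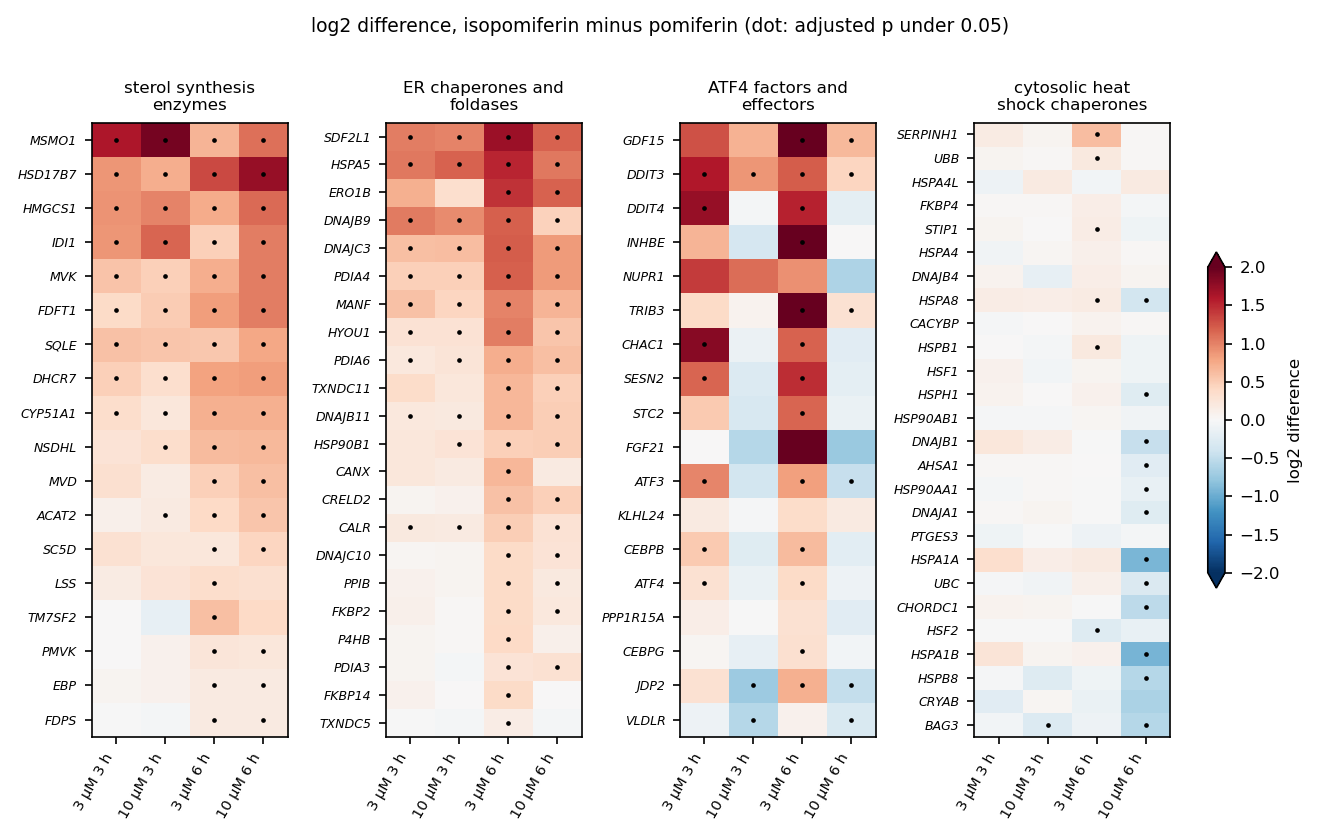
Log2 difference, isopomiferin minus pomiferin, of genes of 4 lists (rows) in the 4 matched pairs (columns), with a dot where edgeR's adjusted p was under 0.05; the colour scale saturates at 2 log2 units either way. All dots of the sterol and ER chaperone lists lie on positive (red) differences, 13 of 18 ATF4 genes have a red dot at 3 µM and 6 h, and 12 of 26 heat shock genes have a blue dot at 10 µM and 6 h.

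ATF4 targets separated the compounds at 3 µM but little at 10 µM. Of 18 ATF4 factors and effectors, 13 were higher with isopomiferin at 3 µM and 6 h and 7 at 3 µM and 3 h, with medians of 1.04 and 0.52. After 6 h at 10 µM 3 were higher and 3 lower (median −0.20), and at 10 µM and 3 h 1 was higher and 2 lower (median −0.15). Of all genes, 7.12% were higher at 3 µM and 6 h and 0.502% at 3 µM and 3 h. At 10 µM, 5.55% of all genes were higher and 7.19% lower at 6 h, and 1.45% higher and 0.979% lower at 3 h. Against DMSO, all 18 rose with either compound at 10 µM and 6 h, by medians of 3.21 and 3.32. In the 3 µM pair at 6 h 15 rose with isopomiferin (median 2.06) and 9 with pomiferin (median 0.79). Among all 15329 genes tested, 2061 rose with isopomiferin and 2465 with pomiferin at 10 µM and 6 h. At 3 µM and 6 h the counts were 1494 and 606.

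CHAC1 (chromosome 15, 40953471 to 40956512), which degrades glutathione, showed this in each library. With 3 µM for 6 h it was at 40.4, 50.7 and 51.1 CPM with isopomiferin and 15.5, 22.4 and 25.2 CPM with pomiferin, a difference of 1.18 ± 0.21 (adjusted p = 0.00024). In the 10 µM pair at 6 h it was at 107, 126 and 118 CPM against 106, 142 and 165 CPM, and the difference was −0.23 [−0.55 to 0.08] (adjusted p = 0.361). The groups overlapped at 10 µM and were apart at 3 µM. DDIT4, an mTORC1 inhibitor, was at 235, 269 and 251 CPM against 66.4, 89.5 and 105 CPM at 3 µM and 6 h (1.54 ± 0.16), and differed by −0.19 [−0.48 to 0.09] at 10 µM. TRIB3, a pseudokinase that feeds back on the response, was at 54.8, 54.1 and 54.0 CPM against 12.7, 14.7 and 13.4 CPM at 3 µM and 6 h (2.00 ± 0.13). With 10 µM for 6 h TRIB3 was at 136, 153 and 154 CPM against 115, 117 and 129 CPM (0.30 ± 0.09), a call lost with DESeq2 (adjusted p = 0.117), with the older quasi-likelihood method (adjusted p = 0.110) and when any 1 of 4 libraries was left out.

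DDIT3, the pro-apoptotic factor CHOP, was the 1 member of the 18 that was higher with isopomiferin in all 4 pairs. It was at 44.7, 31.8 and 40.1 CPM against 16.5, 23.7 and 23.1 CPM at 10 µM and 3 h (0.88 ± 0.11), and differed by 1.60 ± 0.14 at 3 µM and 3 h, 1.21 ± 0.12 at 3 µM and 6 h and 0.42 ± 0.08 at 10 µM and 6 h. INHBE, a secreted activin subunit, was at 3.43, 3.15 and 3.92 CPM against 0.276, 0.506 and 0.895 CPM at 3 µM and 6 h (2.66 ± 0.34). At 10 µM and 6 h its difference was 0.00 [−0.27 to 0.27]. ATF3, a stress-induced repressor, changed sides between the doses: 0.83 ± 0.19 at 3 µM and 6 h and −0.47 ± 0.13 at 10 µM and 6 h. The second call was lost in a fit of those samples alone and without isopomiferin replicate 1 or pomiferin replicate 2 or 3. ATF4 RNA itself was higher with isopomiferin by 0.39 ± 0.06 at 3 µM and 6 h and stood at −0.10 [−0.21 to 0.01] at 10 µM.

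**Figure D4:**
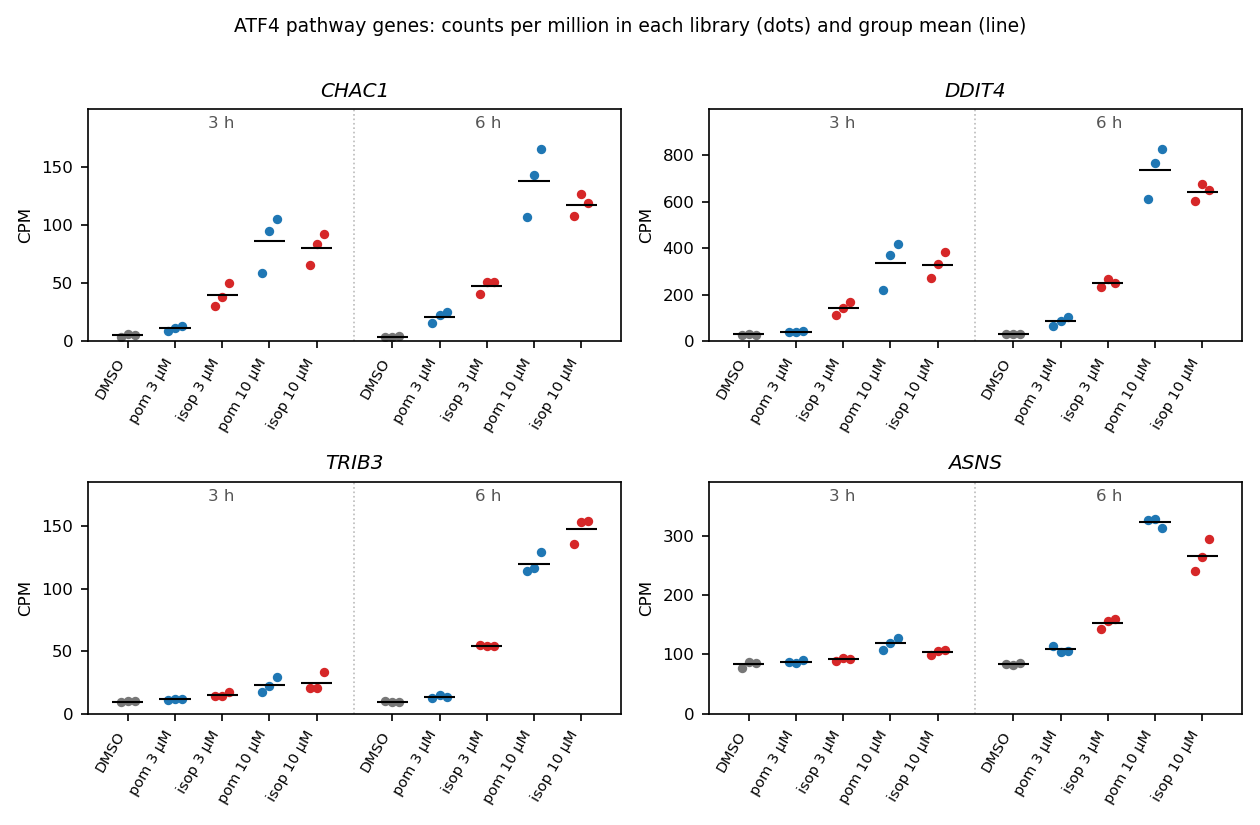
CPM of CHAC1, DDIT4, TRIB3 and ASNS in each library (dots) with the mean of 3 (line), for DMSO, pomiferin (pom) and isopomiferin (isop) at 3 h and 6 h. At 3 µM and 6 h isopomiferin lies above pomiferin for all 4 genes; at 10 µM and 6 h CHAC1 and DDIT4 overlap, TRIB3 is higher with isopomiferin and ASNS higher with pomiferin.

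Amino acid genes downstream of ATF4 differed with dose at 6 h, where 9 of 13 synthesis genes, 7 of 11 transporters and 9 of 20 tRNA synthetases passed the dose interaction, all more negative at 10 µM. Serine, one-carbon and asparagine synthesis genes were higher with isopomiferin in 11 of 13 cases at 3 µM and 6 h, and 1 was higher and 2 lower at 10 µM and 6 h. Amino acid transporters were higher in 9 of 11 cases at 3 µM and 6 h and lower in 2 at 10 µM and 6 h. Cytosolic tRNA synthetases were higher in 8 of 20 cases at 3 µM and 6 h, and 1 was higher and 5 lower at 10 µM and 6 h. Of all genes, 4.23% passed the dose interaction at 6 h and 7.12% were higher at 3 µM and 6 h. At 10 µM and 6 h 5.55% of all genes were higher and 7.19% lower, so the 1 higher synthesis gene and 1 higher synthetase lie near the background. ASNS, the asparagine synthetase, was at 143, 157 and 161 CPM with isopomiferin and 115, 105 and 107 CPM with pomiferin at 3 µM and 6 h (0.50 ± 0.06). After 6 h at 10 µM it was at 241, 264 and 295 CPM against 326, 328 and 314 CPM (−0.27 ± 0.06), so the order of the compounds was the reverse, with an interaction of −0.77 ± 0.08 (adjusted p = 2.79e-07). SLC1A4, a neutral amino acid carrier, was at 111, 106 and 113 CPM against 51.0, 55.0 and 49.8 CPM at 3 µM and 6 h (1.08 ± 0.09), and at 10 µM and 6 h differed by 0.11 [−0.05 to 0.27].

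Dose dependence was tested as the interaction of compound and dose. At 6 h 648 genes passed (4.23% of those tested), 178 with a difference more positive at 10 µM than at 3 µM and 470 with one more negative. At 3 h 9 passed (0.0587%), all 9 more negative. In a fit of the compared samples alone 1 gene passed at 3 h, with a more positive difference at 10 µM. Of the 18 ATF4 factors 14 were among the 470 at 6 h, with INHBE at −2.65 ± 0.37 and TRIB3 at −1.70 ± 0.16. HSPA5 was at −0.48 ± 0.10 (adjusted p = 0.00205), as were 10 further of the 22 ER chaperones in the same direction. INSIG1 (0.63 ± 0.07) and MYCN (0.29 ± 0.07) went the other way. At 3 h CHAC1 changed by −1.93 ± 0.30 and DDIT4 by −1.78 ± 0.23, and both lost the call in a fit of the compared samples alone (adjusted p = 0.0950 each). Time dependence was tested likewise: 375 genes passed at 10 µM (2.45%) and 181 at 3 µM (1.18%), with TRIB3 at 1.62 ± 0.21 at 3 µM. Without pomiferin 3 µM 6 h replicate 1 the dose count at 6 h was 405, and the dose count at 3 h ran from 2 to 19 as single libraries were left out. Without isopomiferin or pomiferin 10 µM 6 h replicate 2 the time count at 10 µM was 244 or 229. The time count at 3 µM was 96 without pomiferin 3 h replicate 2, 116 without isopomiferin 6 h replicate 1, and 83 or 101 without isopomiferin 3 h replicate 1 or 2.

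Of 26 cytosolic heat shock chaperones 12 were lower with isopomiferin at 10 µM and 6 h, where 7.19% of all genes were lower. In that list 5 were higher and 1 lower at 3 µM and 6 h, and 1 was lower at 10 µM and 3 h, BAG3 (−0.28 ± 0.07), a call lost when any 1 of 5 libraries was left out. Of all genes, 7.12% were higher and 6.13% lower at 3 µM and 6 h, and 0.979% lower at 10 µM and 3 h. Against DMSO at 10 µM and 6 h, 12 of the 26 rose with isopomiferin, and 19 rose and 1 fell with pomiferin. Among all 15329 genes tested, 2061 rose with isopomiferin, and 2465 rose and 2360 fell with pomiferin. HSPA8, the constitutive chaperone, was at 3230, 2952 and 3093 CPM with isopomiferin and 3918, 4009 and 4039 CPM with pomiferin (−0.37 ± 0.05). BAG3, an HSPA1A co-chaperone, was at 35.3, 36.3 and 39.8 CPM against 55.6, 52.9 and 57.7 CPM (−0.57 ± 0.06). DNAJB1, a further co-chaperone, was at 89.4, 93.7 and 93.4 CPM against 116, 125 and 138 CPM (−0.45 ± 0.06), with DMSO at 77.5 to 84.6 CPM. No library of one compound reached the range of the other in these 3 genes. After 6 h at 3 µM SERPINH1, a collagen chaperone of the ER that HSF1 also controls, was higher with isopomiferin (0.62 ± 0.04), and HSPA8 was at 0.17 ± 0.05, a call lost when any 1 of 4 libraries was left out. The dose interaction at 6 h was −0.54 ± 0.08 for HSPA8 (adjusted p = 2.9e-05) and −1.09 ± 0.12 for HSPA1A (adjusted p = 6.29e-07).

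Of 26 proteasome subunit genes, 14 were lower with isopomiferin at 10 µM and 6 h (7.19% of all genes) and 6 at 3 µM and 6 h (6.13% of all genes). PSMD1, a subunit of the regulatory cap, was at 313, 313 and 320 CPM against 397, 398 and 426 CPM at 10 µM and 6 h (−0.37 ± 0.04), with DMSO at 271 to 283 CPM. In the 3 µM pair at 6 h it was at 320, 317 and 336 CPM against 349, 355 and 356 CPM (−0.12 ± 0.04). Among 25 NRF2 oxidative stress genes 10 were higher with isopomiferin at 3 µM and 6 h (7.12% of all genes), and 3 were higher and 6 lower at 10 µM and 6 h (5.55% and 7.19% of all genes). HMOX1, the inducible heme oxygenase, was at 349, 381 and 447 CPM against 124, 130 and 148 CPM at 3 µM and 6 h (1.55 ± 0.10). In the 10 µM pair at 6 h it was at 615, 682 and 749 CPM against 467, 449 and 517 CPM (0.51 ± 0.09). In the same pair the small MAF factor MAFG (−0.51 ± 0.06) and the sulfiredoxin SRXN1 (−0.46 ± 0.06) were lower with isopomiferin.

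Signalling genes differed at 3 h and at 6 h. Immediate early factors were higher with isopomiferin in 7 of 22 cases at 3 µM and 3 h and in 6 of 22 at 10 µM and 3 h, where 2 were lower. With 10 µM for 6 h 2 were higher and 7 lower. At 3 µM and 6 h the members with the smallest p were ID3 (0.25 ± 0.04) and IER3 (0.44 ± 0.09), both higher with isopomiferin. Of all genes 0.502% were higher at 3 µM and 3 h, 1.45% higher and 0.979% lower at 10 µM and 3 h, and 5.55% higher and 7.19% lower at 10 µM and 6 h. EGR1, a growth factor responsive regulator, was at 297, 306 and 334 CPM with isopomiferin and 145, 196 and 224 CPM with pomiferin at 10 µM and 3 h (0.73 ± 0.16), a call lost without pomiferin replicate 1. KLF10, a TGF-beta responsive repressor, was at 79.4, 83.4 and 80.5 CPM against 52.9, 57.7 and 62.0 CPM (0.49 ± 0.05). JUN, an AP-1 subunit, went the other way, at 126, 131 and 125 CPM against 201, 253 and 240 CPM (−0.87 ± 0.12), where DMSO was at 104 to 117 CPM. DUSP6, the phosphatase that feeds back on ERK, was at 82.4, 81.2 and 82.3 CPM against 51.3, 60.2 and 58.3 CPM (0.53 ± 0.07) and passed in all 4 pairs, though the call at 3 µM and 3 h (0.30 ± 0.07) was lost when any 1 of 5 libraries was left out. DUSP1, of the same list of MAPK feedback genes, was lower with isopomiferin at 10 µM, by −0.54 ± 0.10 at 3 h and −0.64 ± 0.09 at 6 h. DUSP8 was lower there as well, by −0.85 ± 0.15 and −1.23 ± 0.14, so DUSP6 does not stand for these genes. FOSL1, another AP-1 subunit, was lower with isopomiferin at 10 µM and 6 h by 0.82 on the log2 scale (−0.82 ± 0.08).

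Identity genes of the adrenergic state, in which neuroblastoma cells keep a noradrenergic neuron programme, were lower with isopomiferin in part. Of 18 adrenergic transcription factors 5 were lower at 10 µM and 6 h, 8 at 10 µM and 3 h and 5 at 3 µM and 6 h, where 1 was higher; at 3 µM and 3 h 1 was lower and 1 higher. The lower share of all genes was 7.19%, 0.979%, 6.13% and 0.117% in that order of pairs. The higher share of all genes was 7.12% at 3 µM and 6 h and 0.502% at 3 µM and 3 h. HAND1 was at 148, 142 and 150 CPM with isopomiferin and 232, 214 and 211 CPM with pomiferin at 10 µM and 3 h (−0.58 ± 0.05). With 3 µM for 3 h it was at 186, 191 and 191 CPM against 249, 255 and 255 CPM (−0.42 ± 0.04), and DMSO at 237 to 262 CPM overlapped pomiferin only. GATA2 was lower by −0.44 ± 0.05 at 10 µM and 6 h. DRGX, a homeobox gene of sensory neurons, was at 2.71, 2.12 and 2.67 CPM against 6.85, 6.10 and 5.82 CPM at 10 µM and 6 h (−1.32 ± 0.19). VGF, a neuropeptide precursor of secretory granules, was higher with isopomiferin in all pairs, for example at 1344, 1280 and 1210 CPM against 732, 783 and 757 CPM at 3 µM and 6 h (0.76 ± 0.06). SNAP25, of the same list of catecholamine and granule genes, was lower with isopomiferin in that pair (−0.33 ± 0.05), so VGF does not stand for the list.

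Of 24 G2 and mitosis genes isopomiferin gave lower levels for 9 at 3 µM and 6 h, where 6.13% of all genes were lower. At 10 µM and 6 h it gave lower levels for 1 of the 24, a share under the 7.19% of all genes. TOP2A, the topoisomerase of dividing cells, was at 625, 624 and 622 CPM against 828, 789 and 761 CPM at 3 µM and 6 h (−0.35 ± 0.04), and at −0.11 [−0.20 to −0.02] at 10 µM (adjusted p = 0.116), with a dose interaction of 0.24 ± 0.06 (adjusted p = 0.0267). CCND1, the G1 cyclin, was at 1433, 1450 and 1357 CPM against 1797, 1788 and 1811 CPM at 10 µM and 6 h (−0.35 ± 0.02) and at 1591, 1586 and 1574 CPM against 1773, 1770 and 1773 CPM at 3 µM (−0.16 ± 0.02). Both doses of isopomiferin put CCND1 below every pomiferin library of that dose.

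**Figure D5:**
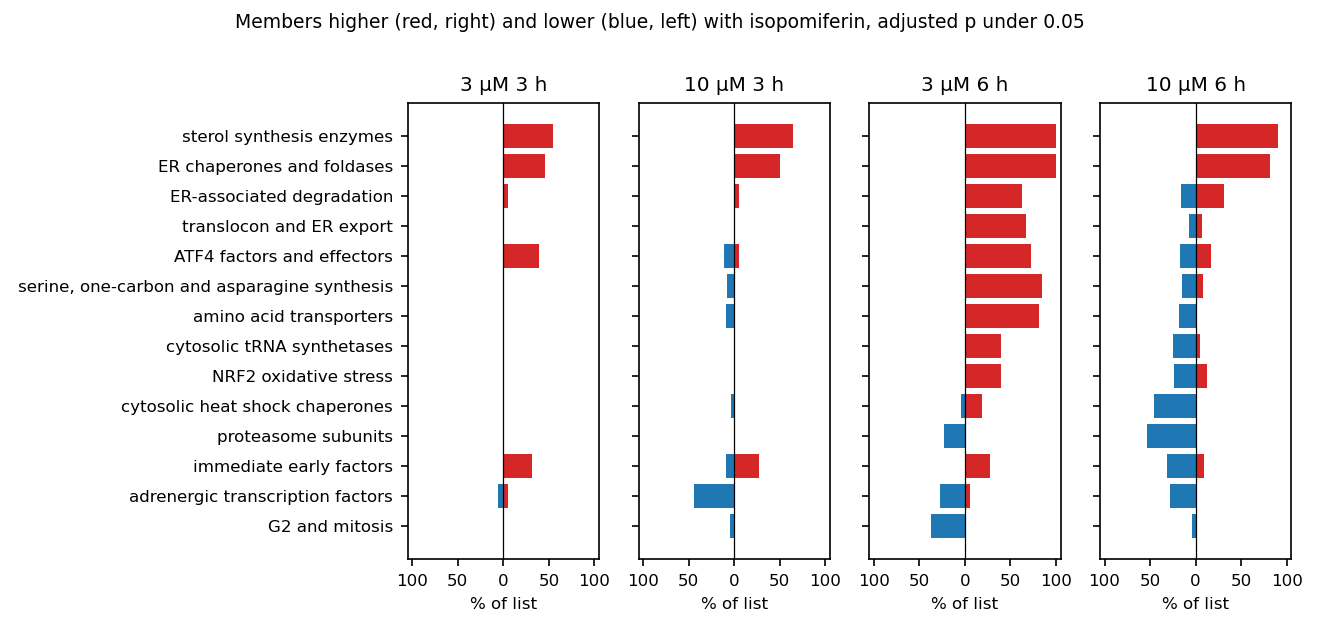
Share of each of 14 gene lists (percent of genes tested) that was higher (red, right) or lower (blue, left) with isopomiferin than with pomiferin at an adjusted p under 0.05, in the 4 matched pairs. At 3 µM and 6 h 22 of 22 ER chaperones and 20 of 20 sterol enzymes were higher; at 10 µM and 6 h 12 of 26 heat shock genes and 14 of 26 proteasome genes were lower.

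The rule for single genes (the largest differences among genes that passed, did not overlap and reached 5 CPM in a group) named others. At 10 µM and 6 h the lead gene was FAM30A, a non-coding RNA gene, at 34.5, 28.7 and 36.2 CPM with isopomiferin and 7.27, 8.74 and 5.89 CPM with pomiferin (2.18 ± 0.19), while DMSO at 11.8 to 13.6 CPM lay between them. SYT2, a synaptotagmin, led the lower genes at 2.71, 2.95 and 3.35 CPM against 7.86, 8.51 and 9.20 CPM (−1.49 ± 0.15). PALM3, a paralemmin, was at 17.1, 18.4 and 19.6 CPM against 42.3, 46.6 and 45.9 CPM (−1.28 ± 0.10). Both of these were above DMSO with either compound. SH2D3C, an adaptor protein, was at 3.79, 4.35 and 4.67 CPM against 10.2, 10.7 and 12.6 CPM at 10 µM and 3 h (−1.40 ± 0.18). The lower genes there also held the regulators FOXO6 (−0.79 ± 0.12) and JDP2 (−0.73 ± 0.13).

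After 3 h at 10 µM the same rule named monocyte and macrophage genes as the 8 largest higher ones: MMP9, CTSZ, CHI3L1, APOE, LAPTM5, CAPG, CD74 and HLA-DRB1. MMP9, a secreted protease, was at 67.6, 88.4 and 65.5 CPM with isopomiferin and 11.5, 11.4 and 13.1 CPM with pomiferin (2.62 ± 0.51), and at 110, 12.2 and 9.35 CPM in the DMSO libraries of 3 h. CD74, the invariant chain of antigen presentation, was at 21.3, 17.2 and 14.0 CPM against 1.86, 4.61 and 4.40 CPM, and at 23.3, 2.67 and 1.50 CPM with DMSO. Of 23 tested genes of the monocyte list 18 were higher with isopomiferin in this pair (median 2.12), where 1.45% of all genes were higher. The list was drawn up after these genes were seen, so this count describes them and is no test. In all, 668 of the 15329 genes tested were at least 2-fold higher in replicate 1 of DMSO at 3 h than in each other DMSO library of that time. They include 70 of the 222 higher genes and 69 of the 90 that were at least 2-fold higher, against 8 of the 1952 called at 10 µM and 6 h. Left out, as chosen after seeing the data, they leave 302 genes called at 10 µM and 3 h, of which 152 were higher and 21 at least 2-fold, with MSMO1, INSIG1, HSPA5 and IDI1 among the largest. The part of other cells in this pair was not tested beyond these values, nor was whether these genes' RNA came from the cultures or entered during library handling. In bulk RNA, more cells of a type and more RNA per cell cannot be told apart.

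The pairs share no library, so a call in several of them is a repeat in separate libraries. Their tests share the spread fitted for each gene over all 39 libraries, so these calls are not fully independent. Of 3504 genes called in any pair, 42 were higher with isopomiferin in all 4 and 7 were lower in all 4. Among the 42 are INSIG1, HMGCS1, IDI1, MVK, SQLE, FDFT1, CYP51A1, MSMO1, HSD17B7, DHCR7, STARD4 and SCD of lipid synthesis and transport. They also hold HSPA5, HYOU1, CALR, PDIA4, PDIA6, DNAJB9, DNAJB11, DNAJC3, SDF2L1, MANF, HERPUD1 and FICD of the ER. MYCN, DDIT3, VGF, DUSP6, ID3 and PIM2 belong to the same 42. The 7 lower genes are DRGX, HAND1, GPER1, CXCR4, HDAC9, KLF13 and RASL11B. GPER1, a membrane estrogen receptor, ranged from −0.33 ± 0.11 to −0.81 ± 0.13 and CXCR4, a chemokine receptor, from −0.34 ± 0.08 to −0.61 ± 0.09. The smallest of these rest on the settings. The call of GPER1 at 3 µM and 6 h was lost with the replicate block (adjusted p = 0.0523), with no filter on low counts, with adjustment over the 4 contrasts together and in a fit of the compared samples alone (adjusted p = 0.152). That of CXCR4 at 3 µM and 3 h was lost with no filter, with the legacy quasi-likelihood method and in a fit of the compared samples alone (adjusted p = 0.237), and when any 1 library of its pair was left out. In fits of the compared samples alone, 26 genes were higher and 2 lower in all 4. The 7 became 2 or 4 without pomiferin 3 µM 3 h replicate 2 or 3, and 4 or 3 without isopomiferin 3 µM 3 h replicate 1 or 3.

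Of the 95 genes called at 3 µM and 3 h, 83 were called in the same direction at 3 µM and 6 h, 67 at 10 µM and 3 h and 60 at 10 µM and 6 h. Both 6 h pairs shared 593 genes called in the same direction (30.4% of the 1952 and 29.2% of the 2030), and 41 were called in opposite directions. In any combination of pairs 49 genes were higher in one and lower in another, ASNS and ATF3 among them.

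Where each compound stood against DMSO differed between the doses at 6 h. The calls against DMSO were 2748 (17.9%) for isopomiferin and 850 (5.55%) for pomiferin at 3 µM and 6 h, but 3892 (25.4%) and 4825 (31.5%) at 10 µM and 6 h. At 3 h they were 643 (4.19%) and 642 (4.19%) at 10 µM, and 264 (1.72%) and 52 (0.339%) at 3 µM. Of the 1091 genes higher with isopomiferin than pomiferin at 3 µM and 6 h, 568 had risen against DMSO with isopomiferin and not passed with pomiferin, TRIB3 among them. Of the 850 higher at 10 µM and 6 h, 338 had fallen with pomiferin and not passed with isopomiferin, MYCN among them, and 22, such as INSIG1, had risen with isopomiferin and fallen with pomiferin. Without replicate 1 of DMSO at 3 h the 3 h counts were 386 for pomiferin at 10 µM, 173 for isopomiferin at 3 µM and 30 for pomiferin at 3 µM. The count for pomiferin at 10 µM and 3 h was 408 without its replicate 3, for isopomiferin at 3 µM and 3 h 175 without its replicate 2, and for pomiferin at 3 µM and 3 h 34 or 26 without its replicate 2 or 3.

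SOX9 (chromosome 17, 72121020 to 72126416), a transcription factor gene, was listed at 0 in some libraries. It was at 0 in all 3 libraries of pomiferin at 3 µM and 6 h, in replicate 3 of isopomiferin at 3 µM and 6 h and in replicate 1 of DMSO at 3 h, and at 8.13 to 23.2 CPM in the other 34. It is among the 2030 genes called at 3 µM and 6 h, and no fold is given. Whether these zeros are counts of the libraries or a fault in the deposited table was not tested, so the call has no reading here. Over the table, 4 genes had such a 0 with a median of at least 3 CPM.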

How the data were processed

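RNA of SK-N-BE(2) cells was sequenced as TruSeq libraries, and the authors deposited a table of raw read counts per gene, with no normalization. The reads were aligned with STAR to GRCh38, per the submitters' processing notes. The versions, the counting program, the annotation and the use of strand are not given in the sources used here, so overlapping genes, antisense genes and near-identical copies may share counts. Groups came from the labels, and all 39 libraries of 13 groups entered one fit with edgeR 4.0.16 in R 4.3.3 (TMM normalization, filterByExpr with a minimum count of 10, quasi-likelihood F test, limma 3.58.1). P-values were adjusted by Benjamini-Hochberg within each contrast over the 15329 genes tested, and a gene was called at an adjusted p under 0.05. Contrasts were isopomiferin minus pomiferin at each dose and time, the interactions of compound with dose and with time, and each compound against DMSO. The code of the fit was run on simulated counts with the same spread for every gene and no library that stood apart. That run does not show how the fit performs on these libraries. CPM are counts divided by the TMM-scaled library size and given per 1e6. Errors are standard errors of the log2 difference and intervals are 95%.

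The alternatives were RLE normalization, no filter, the older quasi-likelihood method, a fit of the compared samples alone, adjustment over the 4 contrasts together, DESeq2 1.42.0, the replicate number as a block, and each library left out. The compounds, the 37 gene lists (632 members, 619 tested) and the tests were chosen with earlier results of these data known. Named genes are, for each pair, the 8 largest differences each way among called genes that do not overlap and reach a mean of 5 CPM, 2 members of each list with at least 3 called, the 4 markers, and the 4 largest interactions each way. Other list members were picked after their values were seen. Some genes are not reported here. Promoters are RefSeq sequences, matched by symbol. No 2 libraries of the same group were identical or agreed within counting noise. Same-numbered libraries of different groups did not deviate together (12 correlations, −0.0885 to 0.0467).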

Additional observations from a re-analysis of the deposited data

Results flagged for a closer look

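The difference between isopomiferin and pomiferin itself differed between doses or times for the genes below, by an interaction test in edgeR's quasi-likelihood fit. At 6 h the difference depended on dose for 648 genes. On the log2 scale (difference at 10 µM minus difference at 3 µM) it was more positive for FGD4 (1.63), LGR4 (1.14), CAB39L (1.12), MAP2K6 (0.92), INSIG1 (0.63) and MYCN (0.29). It was more negative for INHBE (−2.65), ADM2 (−1.89), DDIT4 (−1.73), HSPA1A (−1.09) and HSPA5 (−0.48). At 3 h the difference depended on dose for 9 genes, among them CHAC1 (−1.93), DDIT4 (−1.78), SESN2 (−1.43) and ATF3 (−1.36). All 4 of these 3 h calls were lost in a fit of the compared samples alone. At 6 h the call of FGD4 was lost with no filter on low counts (adjusted p = 0.0503), with the replicate block (adjusted p = 0.0546) and with adjustment over the 4 contrasts together (adjusted p = 0.0791), and that of CAB39L in a fit of the compared samples alone (adjusted p = 0.0663).

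From 3 h to 6 h the difference changed for 375 genes at 10 µM. It rose for CACNA1G (1.42), ZNF793 (1.16), FAM30A (1.07) and HSD17B7 (1.01). It fell for MMP9 (−2.96), FLT4 (−1.28), SFMBT1 (−1.25) and HSPA1A (−1.06). MMP9 is a member of the monocyte and macrophage list whose level stood apart with isopomiferin at 10 µM and 3 h. At 3 µM the difference changed for 181 genes: it rose for TRIB3 (1.62), HMOX1 (1.16), FAM30A (1.103) and HSPA5 (0.47), and fell for CC2D1B (−1.69), IL18BP (−1.53), ZNF713 (−1.39) and INSIG1 (−0.71).

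Some of these calls for time also rest on the settings. At 10 µM that of MMP9 was lost with the replicate block (adjusted p = 0.0542) and with adjustment over the 4 contrasts together (adjusted p = 0.0599). That of SFMBT1 was lost with no filter (adjusted p = 0.0514), with adjustment over the 4 contrasts (adjusted p = 0.0518) and in a fit of the compared samples alone (adjusted p = 0.124). The fit of the compared samples alone also ended the calls of CACNA1G (adjusted p = 0.0546) and ZNF793 (adjusted p = 0.0937) at 10 µM and of CC2D1B (adjusted p = 0.0758) at 3 µM. Leaving out 1 library ended the call for FGD4, MMP9, FAM30A, SFMBT1, ATF3, IL18BP and ZNF713 in 7 or more of the possible cases, and for CAB39L, SESN2, CC2D1B, FLT4 and ZNF793 in 3 or 4.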

How the results depend on the processing

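No named gene called in either run changed direction under an alternative. The dose calls at 3 h did change: 9 genes, all more negative, became 1 gene, more positive, in a fit of the compared samples alone. In fits of the compared samples alone, 181 genes were called at 10 µM and 3 h, 1 for dose at 3 h and 193 for time at 10 µM, and 26 were higher and 2 lower in all 4 pairs. Adjustment over the 4 contrasts together gave 258 at 3 µM and 3 h, 39 for dose at 3 h and 11 lower in all 4. DESeq2 gave 164 at 3 µM and 3 h, 18 for dose at 3 h, 574 for time at 10 µM, 390 for time at 3 µM, 12 lower in all 4, and against DMSO at 3 µM and 3 h 417 for isopomiferin and 106 for pomiferin. The cause was not tested. Within 0.5 log2 units the bounded shares were 60.1% (10 µM, 6 h), 63.5% (10 µM, 3 h), 60.7% (3 µM, 6 h) and 65.8% (3 µM, 3 h), a narrower bound by construction. With only 200 bases before the start, the sterol core was in 0.709%, the heat shock element in 0.347% and the ATF4 element in 2.57% of promoters.

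With each library left out in turn, the pairs gave 1355 to 1789 (10 µM, 6 h), 222 to 338 (10 µM, 3 h), 1201 to 1711 (3 µM, 6 h) and 73 to 93 (3 µM, 3 h) genes. Dose gave 405 to 658 at 6 h and 2 to 19 at 3 h, and time 229 to 357 at 10 µM and 83 to 229 at 3 µM. Against DMSO, isopomiferin gave 3200 to 3478 (10 µM, 6 h), 462 to 659 (10 µM, 3 h), 2078 to 2363 (3 µM, 6 h) and 173 to 212 (3 µM, 3 h). Pomiferin gave 4019 to 4472, 386 to 626, 610 to 713 and 26 to 68 in that order. In all 4 pairs 34 to 42 genes were higher and 2 to 7 lower. The replicate numbers do not pair the libraries, and with the replicate block the pairs gave 1937, 374, 1986 and 108 genes in the first order, all within 1.5 times. Genes under the minimum count of 10 were mostly not tested, and 3 libraries per group limit what small differences can be seen.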
